A study of Mus musculus with 12 samples.

Results

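Interferons are secreted proteins that cells release when they sense viral or other foreign nucleic acids. They bind receptors on the same and on neighbouring cells, and the receptors activate STAT transcription factors which, with IRF factors, switch on a shared set of interferon response genes. Their products sense viral RNA and DNA, block translation or copying of viral genomes, or, as with the guanylate-binding proteins, attack the vacuoles that hold intracellular pathogens. In the brain, neurons and glia express many of these genes at a low level without infection.

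The genes described here are 37 interferon response genes that lie outside the major histocompatibility complex (MHC), out of 21149 gene names on the array. Members were taken as every non-control probe whose gene name, after matching to reference symbols, was a member's symbol. This gave 54 probes that covered all 37 members. Where a member had more than 1 probe, as for 12 members, the probe with the highest mean signal stood for the gene. By role they comprise 5 nucleic acid sensors, 4 transcription factors, the ubiquitin-like modifier Isg15 with its protease Usp18, 12 antiviral effectors, 8 interferon-inducible GTPases, the ADP-ribosyltransferases Parp9 and Parp14, the chemokine Cxcl10, and Ifi44, Rtp4 and Xaf1.

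Gene expression was measured on 12 one-colour microarrays, 3 for each combination of region (entire cerebellum or entire hippocampus) and genotype (En2WT or En2KO). En2KO mice carry a targeted deletion of the homeodomain of Engrailed 2, a transcription factor of the developing midbrain and hindbrain, and are studied as a model of autism spectrum disorder. The comparison between genotypes addresses whether a raised immune response in the mutant brain extends beyond the MHC genes, and the comparison between regions gives the level from which each genotype starts. Both genotypes were adult littermates from heterozygous matings, of both sexes and 3 to 5 months old. The mutant line came from a mixed 129Sv x C57BL/6 and outbred background and was crossed at least 5 times to C57BL/6. Both genotypes share that history, but DNA linked to the targeted locus goes with the genotype. Whether other DNA of the original background also differed between the mice used was not tested. No age or sex was given for a single array, and whether cerebellum and hippocampus with the same replicate number came from the same mouse was not given, so the region tests treat the 12 arrays as separate. Each of 3 slides held all 4 groups, with the slide following the replicate number. All values below are log2 of the normalized signal, differences are En2KO minus En2WT or cerebellum minus hippocampus on that scale, and SDs are over 3 arrays. Levels of different probes cannot be compared with each other.

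Between 62.3% and 73.0% of the 43379 non-control spots were well above background on each array, no spot was saturated, and the median signal was 5.72 to 10.4 times the background. All 7 cerebellum markers were higher in cerebellum and all 7 hippocampus markers lower. En2 itself averaged 14.46 ± 0.37 in En2KO and 14.15 ± 0.41 in En2WT cerebellum, but its probe lies outside the deleted part and so does not check the genotype. For the members, 2 arrays stood apart. Relative to the En2WT mean of the region, the median member was at -0.55 on En2KO replicate 2 of cerebellum and at -0.53 on En2KO replicate 2 of hippocampus, where 4 of 31 members were above that mean. On the other 10 arrays the same median lay between -0.21 and 0.16, and over all genes it lay between -0.06 and 0.08 on every array. Normalization gave all arrays the same distribution of values, so the median over all genes could hardly move. It therefore cannot show whether other genes stood apart on these 2 arrays. Values without these arrays are given beside the differences they moved most.

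Many promoters of the members hold sequence elements known from interferon-responsive genes. STAT and IRF complexes are known to recognise repeated GAAA cores, and STAT dimers recognise TTCNNNGAA. A RefSeq window of 300 bases, from 250 before to 50 after the annotated start on GRCm38.p6, was found for 26 members. An element of GAAA, any 2 bases and GAAA was present on either strand in 18 of these 26 (69.2%), against 3.99% of 27025 genes and 3.44% of all 32851 windows. TTCNNNGAA was present in 9 members (34.6%), against 9.55% of all genes and 8.3% of windows. In 8 members a window held 2 or more GAAA elements, 6 members held neither motif, and motifs overlapped each other in Bst2 and Ifitm3. Sequences of 4 genes are shown because the expression results turn on these genes, each read 5′ to 3′ on the gene's strand with every match to either motif in capitals. For Eif2ak2 the 30 bases shown lie 8 to 37 bases after the start, at chr17:78882535-78882564 on the minus strand. For the others the 250 bases before the start are shown, at chr3:142530086-142530335 on the plus strand for Gbp7, at chr11:72301379-72301628 on the plus strand for Xaf1, and at chr4:156200819-156201068 on the minus strand for Isg15.
Eif2ak2: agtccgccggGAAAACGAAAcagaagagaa
Gbp7: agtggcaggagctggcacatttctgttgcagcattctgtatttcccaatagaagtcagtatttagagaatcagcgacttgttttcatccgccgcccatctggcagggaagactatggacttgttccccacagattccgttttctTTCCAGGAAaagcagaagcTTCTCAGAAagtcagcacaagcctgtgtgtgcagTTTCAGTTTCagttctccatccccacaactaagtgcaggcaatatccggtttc
Xaf1: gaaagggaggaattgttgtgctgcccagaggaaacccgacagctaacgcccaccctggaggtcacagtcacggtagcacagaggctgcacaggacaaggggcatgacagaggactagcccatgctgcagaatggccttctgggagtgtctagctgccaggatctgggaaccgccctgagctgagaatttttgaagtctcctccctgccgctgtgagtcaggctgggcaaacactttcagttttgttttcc
Isg15: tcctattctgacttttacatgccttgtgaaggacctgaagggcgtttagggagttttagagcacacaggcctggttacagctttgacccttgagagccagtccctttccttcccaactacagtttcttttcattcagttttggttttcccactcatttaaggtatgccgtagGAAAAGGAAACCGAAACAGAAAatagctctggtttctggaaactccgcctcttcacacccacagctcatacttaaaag
Eif2ak2 holds a single GAAA element just after its start, and its window also holds 1 TTCNNNGAA match before the bases shown. Gbp7 holds a GAAA element and TTCNNNGAA matches, and Isg15 holds GAAA elements in a row. The bases shown for Xaf1, and its whole window, hold neither motif.

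In the cerebellum no member passed the adjusted test between genotypes, and Eif2ak2 came closest. Of the 34 that passed the detection filter (a signal well above background on every array of some group), 13 were higher and 21 lower in En2KO, with a median difference of -0.06 against -0.03 over all 15596 genes tested. By limma with Benjamini-Hochberg adjustment over all genes, none of the 34 passed an adjusted p of 0.05, where 0.295% of all genes were called higher and 0.365% lower. At an unadjusted p under 0.05, Eif2ak2 was higher, and Dhx58, Irf7, Oas1a, Oasl1 and Oasl2 were lower, where 3.67% of all genes were higher and 5.63% lower. By the rank product, a permutation-based method that the study used, at an uncorrected P under 0.01, Eif2ak2 was called higher, and Zbp1, Irf7, Oas1a and Oasl1 lower, where 2.39% of all genes were called higher and 2.64% lower. Normexp background correction adds an offset of 50 to every signal. With it the rank product called 2 higher (Eif2ak2 and Igtp) and 1 lower (Oasl1). With the authors' processed values it called 2 higher and 2 lower (Oas1a and Oasl1), so both settings lost calls as lower. All 4 were kept with scaling to the 75th percentile, quantile normalization within the region and the mean of a gene's probes. Zbp1 and Oasl1 passed the filter through their En2WT arrays alone, which favoured a lower value in En2KO. With the filter set to all arrays, 13 members were higher and 18 lower, and the rank product called Eif2ak2 higher and Irf7 lower. Without En2KO replicate 2, 18 members were higher and 16 lower, with a median difference of 0.01 and 7 changes of sign. Without En2WT replicate 3 the median was 0.03. The study used 3 mice per genotype, and limma's p-values measure the spread between these arrays. The rank product P is instead set against values shuffled over genes within each array.

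In the hippocampus 1 member rose and 2 fell. Of the 31 members tested, 10 were higher and 21 lower in En2KO, with a median difference of -0.20 against 0.05 over all 14973 genes tested. Limma called Eif2ak2 higher and Gbp7 and Xaf1 lower, where 0.715% of all genes were called higher and 0.628% lower. At an unadjusted p under 0.05, Gbp2, Gbp5, Gbp6, Ifit1 and Irf7 were lower as well, which makes 1 higher and 7 lower of 31, where 10.6% of all genes were higher and 8.9% lower. The rank product, at an uncorrected P under 0.005, called Eif2ak2 higher and Irf7, Gbp6, Gbp7 and Xaf1 lower. Of all genes it called 1.84% higher and 2.3% lower. Irf7, Gbp6 and Oas1a passed the filter through their En2WT arrays alone, which favoured a lower value in En2KO. With the filter set to all arrays, 10 members were higher and 18 lower, with a median difference of -0.14. Without En2KO replicate 2, 13 of the 31 were higher and 18 lower, with a median difference of -0.05 and 5 changes of sign. In dissected tissue, fewer cells of a type and less RNA per cell cannot be told apart.

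**Figure D1:**
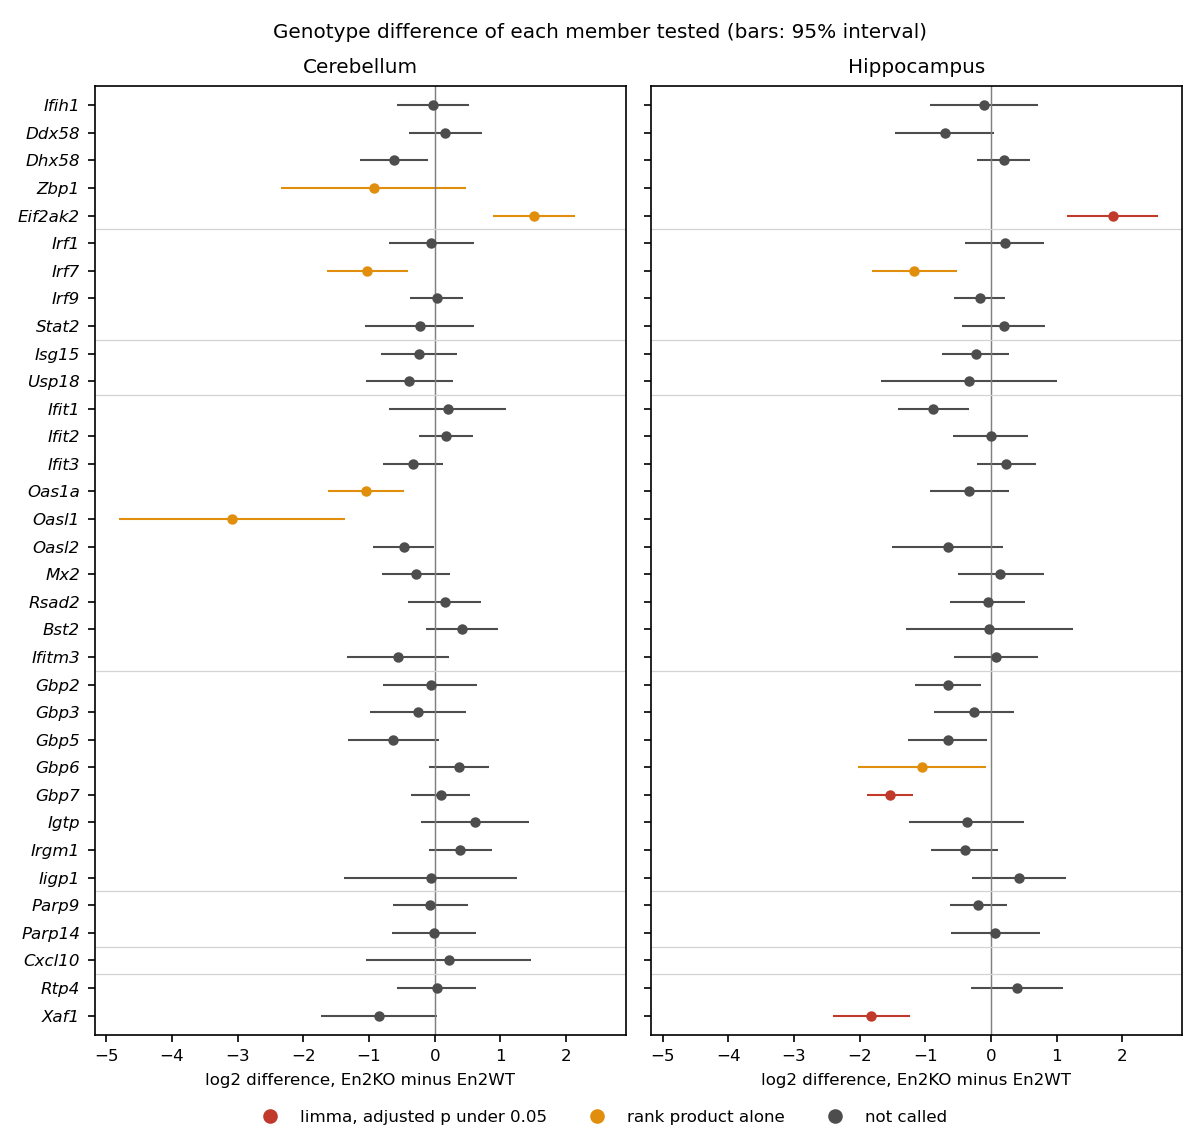
Difference in log2 signal, En2KO minus En2WT, for each member tested, grouped by role, in cerebellum (left) and hippocampus (right). Points are limma estimates from 3 against 3 arrays and bars their 95% intervals, red where the adjusted p was under 0.05 and orange where the rank product alone called the gene; red appears only in hippocampus, for Eif2ak2, Gbp7 and Xaf1.

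Some marker genes of other cells moved with the hippocampal genotypes, not all in the same direction. The summed signal of 6 endothelial genes was 13.35 to 13.53 on the log2 scale in En2KO and 13.78 to 14.0 in En2WT, with all 6 genes lower and none at background. The 12 microglial genes summed to 15.24 to 15.33 in En2KO and 15.41 to 15.65 in En2WT, with 9 of 12 lower. The rank product called 3 endothelial and 3 microglial genes lower, where 2.3% of all genes were called lower. Of 3 perivascular macrophage genes 2 were higher (median 0.54), and the rank product called 1 higher, where 1.84% of all genes were. Of 6 astrocyte genes 3 were higher and 3 lower, and of 3 erythroid genes 2 were higher. None of these genes passed limma's adjusted p of 0.05, and their part in the members' differences was not tested. Of 3 neutrophil genes, S100a9 was called higher in En2KO hippocampus by 1.43, while S100a8 and Ngp were well above background on no hippocampus array. The lymphocyte genes Cd3d, Cd4, Cd8a and Cd79a were also well above background on no hippocampus array. In the cerebellum the microglial sum was 14.0 to 14.7 in En2KO and 14.59 to 14.83 in En2WT, and the endothelial sum 13.66 to 13.85 and 13.87 to 14.29. All 5 choroid plexus genes were higher in En2KO cerebellum (sums of 14.4 to 14.76 against 14.03 to 14.3) and all 5 lower in En2KO hippocampus, where the sums overlapped (12.04 to 16.42 against 14.41 to 15.72). The 4 oligodendrocyte genes were all lower in En2KO hippocampus (17.31 to 17.74 against 17.66 to 17.75). Limma called none of these, and their part was not tested.

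Among the sensors, the clearest difference was in Eif2ak2, which encodes PKR, the double-stranded RNA-activated kinase that stops translation. In hippocampus its levels were 8.84, 8.64 and 9.08 in En2KO replicates 1 to 3 and 6.44, 7.61 and 6.95 in En2WT. In cerebellum they were 8.74, 9.29 and 8.42 in En2KO and 7.05, 7.26 and 7.6 in En2WT. Every En2KO array was above every En2WT array in both regions. The difference in hippocampus was 1.85 ± 0.30 (SE, 95% interval 1.16 to 2.54), a 3.61-fold higher level, with a limma adjusted p of 0.036. In cerebellum it was 1.51 ± 0.27 (0.89 to 2.13), or 2.84-fold, with a limma adjusted p of 0.0634, and 0.0374 when all 12 arrays shared the estimate of spread, but 0.174 (difference 1.27) in that shared fit without the En2KO replicate 2 arrays. The rank product permutation test gave P = 3.34e-05 in hippocampus and 0.000103 in cerebellum. Within slides the difference was 2.40, 1.03 and 2.13 in hippocampus and 1.69, 2.02 and 0.81 in cerebellum. The hippocampal call was lost when any array but En2WT replicate 2 was left out, with adjusted p up to 0.142, with the slide as a block (adjusted p = 0.076) and with no filter on dim probes (0.0955), while the estimate stayed between 1.57 and 2.16 with any array left out. The genotype difference did not pass the test of a difference between regions (-0.34, limma adjusted p = 0.752). Its single probe lies at chr17:79252168-79252227 (mm9, minus strand), and Eif2ak2 is the 1 member on chromosome 17, the chromosome that also carries the mouse MHC. Its distance from the MHC was not examined, and any part of its position in these differences was not tested.

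The other sensors did not follow Eif2ak2. Dhx58, which encodes LGP2, a regulator of the RIG-I-like RNA helicases, was 8.02, 7.4 and 7.77 in En2KO cerebellum and 8.15, 8.35 and 8.56 in En2WT. Its cerebellar groups did not overlap, but the difference of -0.62 ± 0.23 had a limma adjusted p of 0.431. The gene's other probe was well above background on no array. Zbp1, a sensor of Z-form nucleic acids, was 5.11, 3.02 and 5.22 in En2KO cerebellum and 4.62, 6.13 and 5.4 in En2WT. The groups overlapped, and 1 array decided the value. The gene passed the filter through its En2WT arrays alone, which favoured a lower value in En2KO. The difference was -0.93 ± 0.61 (limma adjusted p = 0.73, rank product permutation P = 0.00809) and -0.21 without En2KO replicate 2. In hippocampus Zbp1 was untested. Ifih1, which encodes the RNA sensor MDA5, differed by -0.03 in cerebellum and -0.10 in hippocampus. Ddx58, which encodes RIG-I, was 5.87, 5.79 and 6.46 in En2KO cerebellum and 5.93, 6.07 and 5.62 in En2WT, and 6.15, 5.71 and 4.93 against 6.16, 6.04 and 6.69 in hippocampus. The groups overlapped in both regions, and the differences of 0.16 and -0.70 did not pass. Its 3 other probes were dimmer, and of them 1 was well above background on every cerebellum array (0.2) and 1 on no array.

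Of the transcription factors, Irf7, which amplifies the production of type I interferon, showed the largest differences between genotypes. Its levels were 4.29, 4.82 and 5.28 in En2KO cerebellum and 5.75, 5.98 and 5.75 in En2WT. In hippocampus they were 4.63, 3.71 and 4.22 in En2KO and 5.55, 4.96 and 5.55 in En2WT. Every En2KO array was below every En2WT array in both regions. The difference in cerebellum was -1.03 ± 0.27 (limma adjusted p = 0.223, rank product permutation P = 0.00348). In hippocampus it was -1.17 ± 0.28 (limma adjusted p = 0.0991, rank product permutation P = 0.00121). The probe was not well above background on any En2KO hippocampus array. The gene passed the filter there through its En2WT arrays alone, which favoured a lower value in En2KO. The measured En2WT mean there was at least 1.55-fold higher, set against the lowest signal that was well above background on each array. Such folds hold for the scaling used and leave out the spread between arrays. With normexp the differences shrank to -0.38 in cerebellum and -0.39 in hippocampus. Stat2 and Irf9, partners in the complex that answers type I interferon, differed by -0.23 and 0.03 in cerebellum and by 0.19 and -0.17 in hippocampus. A second, dimmer probe of Irf9 gave -0.05 in cerebellum and -0.66 in hippocampus (limma adjusted p = 0.123). In hippocampus that probe passed the filter through its En2WT arrays alone, which favoured a lower value in En2KO. Irf1, a factor of the type II interferon response, was 11.72, 10.91 and 11.02 in En2KO hippocampus and 10.76, 10.94 and 11.33 in En2WT, which overlap. It differed by -0.05 in cerebellum and 0.21 in hippocampus, and its second probe, also well above background on every array, gave -0.82 in hippocampus. Without En2KO replicate 2, Irf1 and Stat2 differed by 0.26 and 0.06 in cerebellum. None of these passed the adjusted test.

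**Figure D2:**
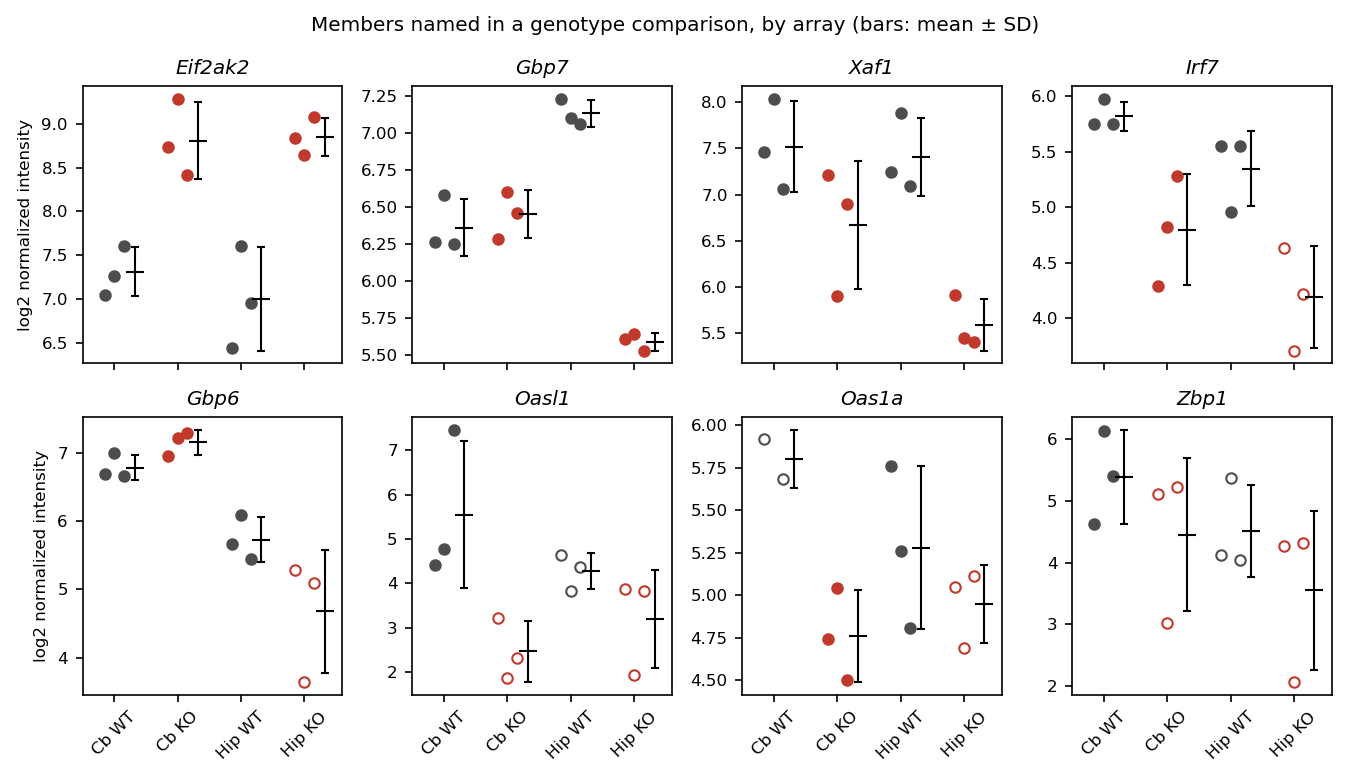
Log2 normalized signal on each array for 8 members, with En2WT in grey and En2KO in red for cerebellum and hippocampus, and bars at the mean ± SD of a group. Open markers are groups where the probe was not well above background with a value on all 3 arrays; Eif2ak2 is higher in En2KO on every array of both regions, and Gbp7 is lower in En2KO in hippocampus alone.

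Most of the GTPases had lower values in En2KO hippocampus, where Gbp7 alone passed the test. Of 8 tested, 7 were lower, with a median difference of -0.53, and 4 were lower at an unadjusted p under 0.05, where 8.9% of all genes were. In cerebellum 4 were higher and 4 lower, with a median of 0.01. Without En2KO replicate 2, 7 of 8 were lower in hippocampus (median -0.45), and 6 were higher and 2 lower in cerebellum (median 0.30). Gbp7, a guanylate-binding protein of the interferon-gamma response, was the member with the lowest adjusted p. It was 5.61, 5.64 and 5.53 in En2KO hippocampus and 7.23, 7.1 and 7.06 in En2WT. In cerebellum it was 6.28, 6.6 and 6.46 in En2KO and 6.26, 6.58 and 6.25 in En2WT. The hippocampal groups lay far apart and the cerebellar groups overlapped. The difference in hippocampus was -1.54 ± 0.15 (SE, 95% interval -1.89 to -1.19), with En2WT 2.9-fold higher, and its limma adjusted p was 0.00645. It passed when any of the 6 arrays was left out (adjusted p of 0.015 to 0.0435) and with the slide as a block (0.0357), and was -1.62, -1.46 and -1.53 within the slides. With normexp it was -0.87 (adjusted p = 0.0266). In cerebellum the difference was 0.09 (adjusted p = 0.957).

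Gbp7 was also the 1 member whose genotype difference differed between regions. The cerebellar difference exceeded the hippocampal one by 1.62 ± 0.22 (limma adjusted p = 0.0186), where 0.145% of all genes were called. With normexp the value was 0.95 (adjusted p = 0.0798), and without both En2KO replicate 2 arrays it was 1.57 (0.0916). The call was also lost when any of 5 single arrays was left out, En2KO replicates 2 and 3 and En2WT replicate 1 of cerebellum and En2KO replicate 3 and En2WT replicate 1 of hippocampus, with adjusted p of 0.05 to 0.0639. The probe lies at chr3:142209379-142209438 (mm9, plus strand). The 4 members of the family on chromosome 3 (Gbp2, Gbp3, Gbp5 and Gbp7) had differences of -0.65, -0.26, -0.66 and -1.54 in hippocampus. These genes resemble each other in sequence, and whether a probe also reads a relative was not tested.

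Gbp6, a relative on chromosome 5, was 5.29, 3.64 and 5.1 in En2KO hippocampus and 5.66, 6.09 and 5.45 in En2WT. The groups did not overlap, but replicate 2 lay furthest below. In hippocampus the gene passed the filter through its En2WT arrays alone, which favoured a lower value in En2KO. The difference was -1.05 ± 0.42 (limma adjusted p = 0.227, rank product permutation P = 0.00391), between -1.36 and -0.54 with 1 array left out, and -0.30 with normexp. In cerebellum it was 0.37 (adjusted p = 0.649). Of the immunity-related GTPases, which disrupt pathogen vacuoles, Igtp and Irgm1 differed by 0.62 and 0.39 in cerebellum and by -0.37 and -0.40 in hippocampus, and Iigp1 by -0.06 and 0.42. All of these had limma adjusted p above 0.05. Without En2KO replicate 2, Igtp differed by 1.05 and Iigp1 by 0.64 in cerebellum, and Igtp by -0.10 in hippocampus.

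The antiviral effectors gave no call by limma in either region, with 4 higher and 6 lower of 10 tested in cerebellum and 3 higher and 6 lower of 9 in hippocampus. Oasl1, an oligoadenylate synthetase-like protein that restrains translation of Irf7, was 3.22, 1.86 and 2.32 in En2KO cerebellum and 4.42, 4.77 and 7.46 in En2WT. The groups did not overlap, and no En2KO array was well above background. In the scaling used, the measured En2WT mean was at least 3.43-fold higher. Since the gene entered the test through its En2WT arrays alone, the filter favoured a lower value in En2KO, and with the filter set to all arrays it was not tested. The measured difference was -3.08 ± 0.75 (limma adjusted p = 0.19, rank product permutation P = 6.41e-07, the smallest that 100 permutations over all genes can give). Without En2WT replicate 3 it was -2.13 (adjusted p = 0.0876), and with normexp -0.92. In hippocampus, where it was not tested, levels were 3.87, 1.92 and 3.82 in En2KO and 4.64, 3.83 and 4.36 in En2WT.

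Oas1a makes the oligoadenylates that activate RNase L. In cerebellum it was 4.74, 5.04 and 4.5 in En2KO and 5.92 and 5.68 in En2WT replicates 1 and 3, the spot of replicate 2 having been left out as an outlier. The difference was -1.04 ± 0.25 (limma adjusted p = 0.206) and -0.38 with normexp. The rank product permutation test, which took the mean of the other En2WT arrays in place of the missing value, gave P = 0.00244. In hippocampus Oas1a was 5.05, 4.69 and 5.11 in En2KO and 5.76, 5.26 and 4.81 in En2WT, overlapping groups that differed by -0.33 (adjusted p = 0.518). Oasl2, a further relative, differed by -0.47 in cerebellum (8.42, 8.08 and 8.26 in En2KO, 8.64, 8.98 and 8.56 in En2WT). Its groups did not overlap, and its limma adjusted p was 0.527. Oas1a, Oas2, Oasl1, Oasl2, Gbp6 and Cxcl10 all lie on chromosome 5. Of those tested, 3 of 5 were lower in En2KO cerebellum and 3 of 3 in hippocampus. Any part of their position in these differences was not tested.

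Ifit1, which binds foreign RNA lacking the host cap, was 5.8, 6.33 and 6.46 in En2KO hippocampus and 6.82, 7.36 and 7.03 in En2WT. The groups did not overlap, and the difference was -0.88 ± 0.23 (limma adjusted p = 0.123), against 0.20 in cerebellum. Its relatives Ifit2 and Ifit3 differed by 0.17 and -0.33 in cerebellum and by 0.00 and 0.23 in hippocampus. A second, dimmer probe of Ifit2 gave 0.87 in cerebellum (limma adjusted p = 0.445). It passed the filter there through its En2KO arrays alone, and in hippocampus it was not tested. Mx2, Rsad2, Bst2 and Ifitm3, which act against virus entry, copying or release, differed by between -0.56 and 0.41 in cerebellum and between -0.05 and 0.14 in hippocampus, with adjusted p of 0.687 and above. The dimmer probes of Rsad2 gave -0.32 and 0.03 in cerebellum and -0.89 and -1.85 in hippocampus. In hippocampus each was well above background on 2 of 3 En2WT arrays and no En2KO array, and was not tested. Bst2, at 10.95, 8.85 and 10.93 in En2KO hippocampus, turned from -0.03 to 0.67 without En2KO replicate 2, and Ifitm3 in cerebellum went from -0.56 to -0.27.

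Of the remaining members, Xaf1, an interferon-induced gene that promotes apoptosis, fell in En2KO hippocampus. Its levels there were 5.91, 5.45 and 5.4 in En2KO and 7.25, 7.88 and 7.09 in En2WT. In cerebellum they were 7.21, 5.9 and 6.9 in En2KO and 7.46, 8.04 and 7.06 in En2WT. The hippocampal groups did not overlap and the cerebellar groups did. The difference in hippocampus was -1.82 ± 0.25 (SE, 95% interval -2.4 to -1.23), with En2WT 3.53-fold higher and a limma adjusted p of 0.0216. In cerebellum it was -0.85 ± 0.38 (adjusted p = 0.56), or -0.46 without En2KO replicate 2, and the difference between regions of 0.97 did not pass (adjusted p = 0.457). The hippocampal difference was -1.34, -2.43 and -1.69 within the slides. With normexp it was -0.98 and the call was lost (adjusted p = 0.055), as it was with the authors' values (0.0566), no filter on dim probes (0.0773), the slide as a block (0.0571) and without En2KO replicate 2 (0.0509), En2KO replicate 3 (0.0938), En2WT replicate 1 (0.102) or En2WT replicate 2 (0.0583). Isg15 and Usp18 differed by -0.24 and -0.39 in cerebellum and by -0.23 and -0.33 in hippocampus. Parp9 and Parp14 differed by -0.07 and -0.01 in cerebellum and -0.20 and 0.06 in hippocampus. The levels of Parp14 overlapped, at 8.70, 7.86 and 8.53 in En2KO and 7.80, 8.56 and 8.53 in En2WT hippocampus, and its 2 other probes were well above background on no array. Rtp4 differed by 0.03 and 0.40, and Cxcl10, a chemokine that attracts T cells, by 0.21 in cerebellum. None of these passed. Without En2KO replicate 2, Isg15 differed by 0.02 and Cxcl10 by 0.89 in cerebellum, and Usp18 by -0.05 in hippocampus.

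Some members were too dim to test with the filter used. Oas2 was 3.28, 2.86 and 3.56 in En2KO cerebellum and 3.95, 4.46 and 4.62 in En2WT, where 2 arrays were well above background. Set against the lowest such signal, its En2WT mean was 1.49-fold higher. That mean includes an array that was not well above background. Ifi44 was 2.27, 3.44 and 3.22 in En2KO cerebellum and 3.68, 3.64 and 5.18 in En2WT, where 2 arrays were again well above background. Its En2WT mean was 1.32-fold higher by the same measure, with the same limit. Mx1, whose protein traps viral nucleocapsids, rose above background on a single array for each of its 2 probes. The brighter probe was 7.03 on En2KO replicate 2 of cerebellum, against 2.49 and 1.86 on the other En2KO arrays and 2.49, 1.82 and 2.47 in En2WT, and in hippocampus it was 1.94, 1.9 and 1.85 in En2KO and 1.84, 1.88 and 4 in En2WT. The other probe was 6.02 on En2KO replicate 3 of hippocampus and between 1.82 and 2.24 on all other arrays. Zbp1, Oasl1 and Cxcl10 were untested in hippocampus alone.

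Members whose genotypes did not overlap were counted in each region. In cerebellum every En2KO array lay above every En2WT array for 2 members (Eif2ak2 and Irgm1) and below for 5 (Dhx58, Irf7, Ifit3, Oasl1 and Oasl2), where 5.93% of all genes with complete values lay above and 8.77% below. In hippocampus 1 member lay above (Eif2ak2) and 6 below (Irf7, Ifit1, Gbp2, Gbp6, Gbp7 and Xaf1), where 15% and 11.3% of all genes did. Oasl1 in cerebellum, and Irf7 and Gbp6 in hippocampus, passed the filter through their En2WT arrays alone, which favoured a place below.

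**Figure D3:**
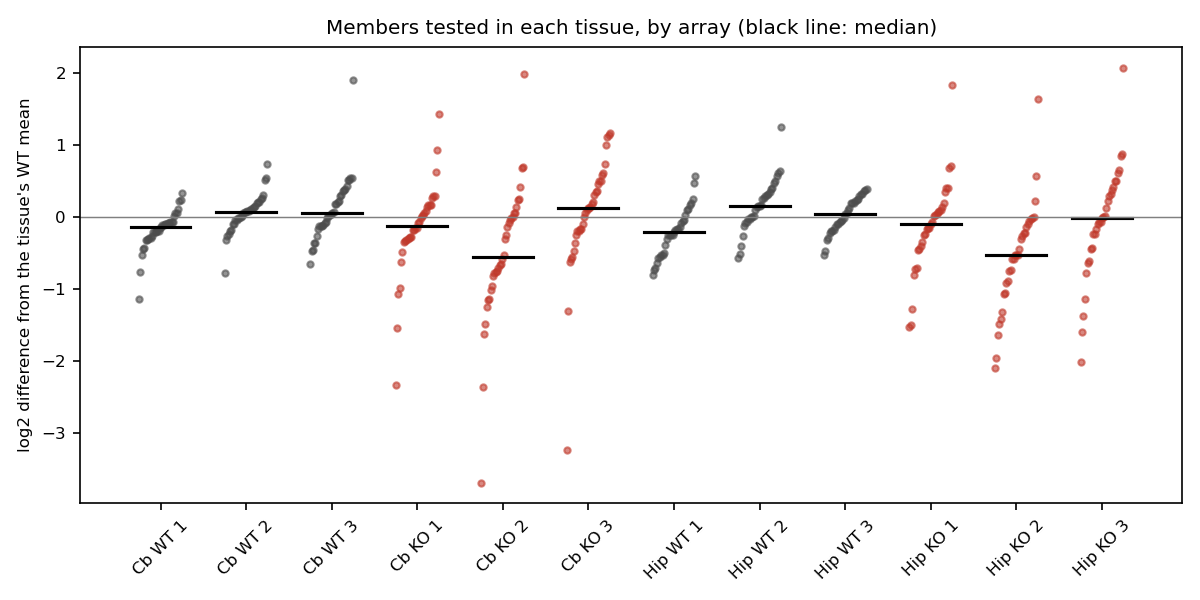
Each point is 1 tested member on 1 array, as its log2 signal minus the En2WT mean of that region, and black lines are medians over members. Medians lie near 0 except on En2KO replicate 2 of cerebellum (-0.55) and of hippocampus (-0.53).

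Between the regions, the members were on the whole higher in cerebellum, but interferon genes outside the list were not. Over both genotypes 26 of 34 members were higher in cerebellum and 8 lower, with a median difference of 0.29 against 0.02 over all 15819 genes. Of 28 further interferon-induced genes tested, 12 were higher and 16 lower (median -0.14), with 4 called in each direction. Of 29 genes of the upstream pathway, 12 were higher and 17 lower (median -0.05). Of 28 MHC genes, 22 were higher and 6 lower (median 0.82). Limma called 9 higher (Dhx58, Gbp5, Gbp6, Ifit3, Igtp, Irf9, Isg15, Oasl2 and Stat2) and 1 lower (Irf1), but 21.5% of all genes were called higher and 20% lower, so the count of higher members is near the background and that of lower members is under it. Every cerebellum array lay above every hippocampus array for 6 members and below for none, where 11.1% and 10.9% of all genes did. The 6 were Dhx58, Irf9, Stat2, Isg15, Ifit3 and Gbp6. In the values as the authors processed them, the median of all genes shifted to 0.28 and that of the members to 0.57, with 20 members called higher and none lower, so directions of small differences depend on the scaling.

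Averaged over genotypes, Gbp6 had the largest region difference. Its lowest, median and highest levels were 6.67, 6.98 and 7.30 in cerebellum and 3.64, 5.37 and 6.09 in hippocampus. The difference was 1.77 ± 0.25, or 3.42-fold (limma adjusted p = 0.000131), and was 1.06 in En2WT and 2.48 in En2KO. In En2WT alone, Dhx58 (1.85), Stat2 (1.51) and Ifit3 (1.46) differed more than Gbp6. Dhx58 ranged from 7.40 over 8.09 to 8.56 in cerebellum and from 6.46 over 6.53 to 6.93 in hippocampus, a difference of 1.44 ± 0.14 or 2.71-fold (adjusted p = 5.46e-06). Stat2 ranged from 9.71 over 10.59 to 10.86 and from 8.50 over 9.17 to 9.58, a difference of 1.30 ± 0.25 (0.00114). For these 3 genes no hippocampus array reached the lowest cerebellum array.

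Ifit3 ranged from 10.54 over 10.99 to 11.21 in cerebellum and from 9.50 over 9.78 to 10.04 in hippocampus, a difference of 1.18 ± 0.13 (limma adjusted p = 1.89e-05). Isg15 ranged from 7.02 over 7.78 to 7.91 and from 6.17 over 6.57 to 7.02, a difference of 1.08 ± 0.17 (0.000307). Igtp, Gbp5, Oasl2 and Irf9 were higher by 1.04, 0.95, 0.72 and 0.46. Of the 9 members called higher in cerebellum, 7 have a promoter window and 5 of these (Stat2, Isg15, Ifit3, Gbp5 and Igtp) hold the GAAA element, as in the run of elements printed for Isg15, a share like that of all members with a window (69.2%).

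Irf1 was the 1 member called lower in cerebellum, at 9.82, 10.57 and 10.77 (lowest, median and highest) against 10.76, 10.98 and 11.72 in hippocampus. The regions touched, and the difference was -0.66 ± 0.20 (limma adjusted p = 0.0216). The call was lost without En2WT replicate 2 of cerebellum (0.0526) or En2WT replicate 3 of hippocampus (0.051), and with the authors' values (-0.33, adjusted p = 0.147). Iigp1, at 6.22, 7.74 and 8.70 against 7.62, 8.21 and 8.85, differed by -0.54 (0.267). Parp9, at 6.02, 6.62 and 6.69 against 6.59, 6.82 and 7.08, differed by -0.36 (0.0824). Ifit2, at 7.58, 7.76 and 7.96 against 7.56, 7.87 and 8.46, and Ifitm3, at 9.54, 10.41 and 11.23 against 9.97, 10.58 and 11.11, both differed by -0.17, and with Parp9 these turned positive in the authors' values. A second, dimmer probe of Ifit2 went the other way, at 0.73 (limma adjusted p = 0.0243 with every probe on its own). That probe passed the filter through its En2KO cerebellum arrays alone, which favoured a higher value in cerebellum.

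The difference of Gbp7 between regions depended on genotype. It was -0.77 in En2WT and 0.85 in En2KO, so that its mean over genotypes was 0.04. Markers of other cells moved in both directions between regions. All 12 microglial genes were lower in cerebellum, 11 of them called, with a median of -0.97. All 4 oligodendrocyte genes were higher, with Mag and Mog called, as were the 3 erythroid genes, none called, and S100a9 was higher by 1.86 and called. Their part in the members' differences was not tested.

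**Figure D4:**
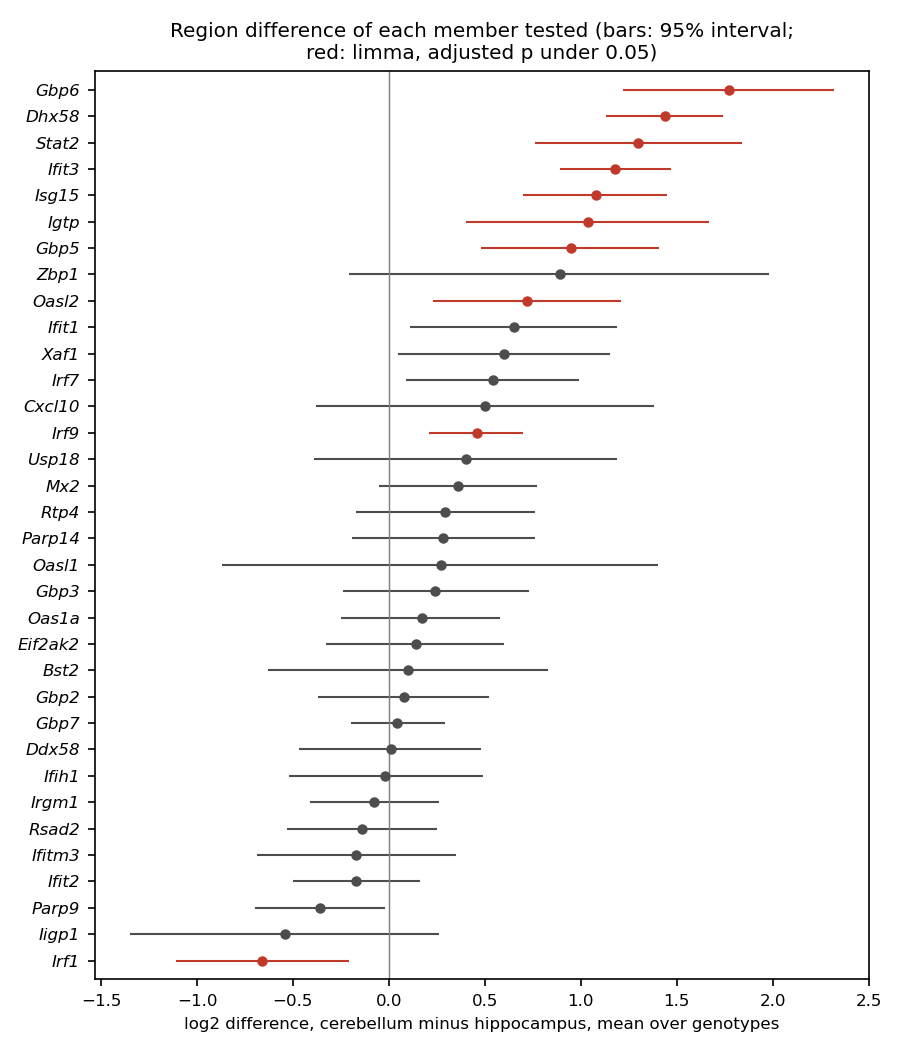
Difference in log2 signal, cerebellum minus hippocampus and averaged over genotypes, for the 34 members tested, sorted by size. Points are limma estimates from 6 against 6 arrays and bars their 95% intervals, red where the adjusted p was under 0.05, with 9 members red on the right of 0 and Irf1 on the left.

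No gene of the signalling pathway upstream of the members was called between genotypes. Of 35 pathway genes on the array (interferons, receptors, kinases, adaptors and factors that are not members), 29 were tested in each region by limma. In cerebellum 9 were higher and 20 lower, with a median of -0.15, and at an unadjusted p under 0.05 there were 0 higher and 1 lower. In hippocampus 16 were higher and 13 lower, with a median of 0.04, and 2 higher and 2 lower at that p. The rank product called 0 of them in either region. The receptor genes Ifnar1, Ifnar2, Ifngr1 and Ifngr2 differed by -0.46, -0.35, -0.17 and -0.37 in cerebellum and by -0.12, -0.08, 0.40 and 0.03 in hippocampus, with limma adjusted p of 0.373 and above. Between regions, Ifngr2 was lower in cerebellum (-0.89, limma adjusted p = 0.000321). Ifnb1 and Ifna4, genes of type I interferons, were well above background on no array.

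Further interferon-induced genes outside the member list gave no call by limma between genotypes. Of 34 on the array, limma called none of 28 tested in cerebellum, with 16 higher, 12 lower and a median of 0.02, where 1 in each direction had an unadjusted p under 0.05 and the rank product called 1 higher. Limma called none of 27 in hippocampus, with 12 higher, 15 lower and a median of -0.02, where 1 higher and 6 lower had such a p and the rank product called 1 lower. Of all genes in hippocampus, 10.6% were higher and 8.9% lower at that p, and the rank product called 2.3% lower. In cerebellum 3.67% were higher and 5.63% lower, and the rank product called 2.39% higher. In the MHC list, 27 of 43 genes were tested. In cerebellum 17 were higher and 10 lower, with a median of 0.35 against -0.06 for the members. Limma called H2-Bl higher and H2-Eb1 lower there. At an unadjusted p under 0.05, 8 were higher and 2 lower, where 3.67% of all genes were higher and 5.63% lower. The rank product called 5 higher and 1 lower, where it called 2.39% of all genes higher and 2.64% lower. In hippocampus 14 were higher and 13 lower, with a median of 0.01, and H2-Aa was called higher and H2-Eb1 lower. At an unadjusted p under 0.05, 3 were higher and 3 lower, where 10.6% of all genes were higher and 8.9% lower. The rank product called 2 higher and 2 lower, where it called 1.84% of all genes higher and 2.3% lower. The lists were not tested against each other.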

How the data were processed

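Total RNA of entire cerebellum and hippocampus was labelled with Cy3 and hybridised to 12 Agilent 4x44K arrays, annotated on mm9. The deposited intensity values are each array's processed signal from Feature Extraction 10.7.3.1 per the file headers, already background-corrected. The authors also deposited log2 values per probe, which they quantile-normalized after removing poor probes, and which were used as an alternative. Their direction and scale were checked by rank correlation with each scanner array (0.998 or more with its own), and whether an offset was added is not given in the sources used here.

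Here, control and outlier-flagged spots (110 to 331 per array) were left out, log2 signals were quantile-normalized over 12 arrays, spots of a probe were averaged, and the brightest probe stood for a gene. Genes with a signal well above background on every array of some group, and 2 or more values in each group, were tested with limma 3.58.1 (R 4.3.3), per region for genotype and on 12 arrays for region and genotype by region, all p-values adjusted over all genes tested. The rank product used 9 ratios and 100 permutations, as the study's methods use this statistic, with missing values filled by the group mean. Gene names came from the cerebellum files' annotation. The older annotation of the hippocampus files named the Gbp6 probe Mpa2l and the Gbp7 probe Gbp6, and 4691 spots differed in name. Of 41174 probes, 6283 had no gene name. Promoter windows were read from RefSeq on GRCm38.p6. No genome was used. Figures were drawn with matplotlib 3.10.9.

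The members and lists were chosen with earlier results of these data known. Values on every array were given for members called in a genotype or interaction test, with 1 of the 3 lowest p-values of a region, or with probes that disagree in sign by over 0.5, and the lowest, median and highest value for those with 1 of the 5 largest or smallest region differences. Ifit1, Oasl2, Ifi44 and Bst2 were added after their values were seen. Scripts were tested on simulated data. The number of arrays, 3 per group, limits the precision. Alternatives covered normalization, background correction, filter, probe choice, shared fit, the replicate number as a block, threshold and each array left out. The replicate number is the slide in the file headers. Leaving out the En2KO replicate 2 arrays of both regions was chosen after seeing the data. Single values of 1 gene of the pathway list are not reported here.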

Additional observations from a re-analysis of the deposited data

Results flagged for a closer look

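The genotype difference of Gbp7 differed between the regions by 1.62 ± 0.22 on the log2 scale (limma, adjusted p = 0.0186). It was 0.09 in cerebellum and -1.54 in hippocampus, with En2KO lower on all 3 hippocampus slides. Its probe exceeded the background on each of the 12 arrays. It was picked out because a test of the difference between regions passed, the 1 such case among the 34 members tested.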

How the results depend on the processing

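The replicate number marks the slide, but same-numbered arrays of the 2 genotypes of a region did not deviate together (correlations of deviations from the group means -0.17 to 0.11, and -0.19 to 0.42 over all pairs of groups). With the replicate block limma called 0 members in cerebellum, 1 in hippocampus (Gbp7), 12 between regions and 1 for genotype by region. In cerebellum, 1 member (Eif2ak2) was called when all 12 arrays shared a fit and 6 passed at an unadjusted p under 0.05, and leaving out each array gave 0. In hippocampus, no filter on dim probes called 2 (Gbp7 and Oas2), 8 passed at an unadjusted p, and leaving out each array gave 1 to 2. Oas2 was well above background on no hippocampus array, at 2.48, 2.44 and 2.8 in En2KO and 4.34, 4.27 and 4.18 in En2WT. Between regions, the authors' processed values gave 20 members, a minimum difference of 1 gave 6, and leaving out each array gave 8 to 12. For genotype by region, normexp background correction, the authors' values and leaving out both En2KO replicate 2 arrays (chosen after seeing the data) each gave 0, and leaving out each array gave 0 to 1. The rank product called 3 members in cerebellum with normexp, 2 with only probes above background on all arrays and 2 at a percentage of false prediction under 0.05, with 3 to 6 when each array was left out. In hippocampus it called 3 with normexp, 3 with the authors' values and 3 at that percentage, with 3 to 5 when each array was left out. The median difference of the members was -0.07 to -0.05 in cerebellum and -0.33 to -0.14 in hippocampus over other settings, and -0.26 to 0.03 and -0.34 to -0.04 with each array left out. The region difference turned to 0.11 for Parp9, 0.2 for Ifit2 and 0.23 for Ifitm3 with the authors' values, to 0.28 for Ifit2 with the mean of its probes, and to 0.15 for Ifitm3 on En2WT arrays alone. The cause of these changes was not tested. Of the named members' values under other settings, 183 kept their direction and side of the threshold, 12 lost a call and 2 gained one.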
